A study of Mus musculus with 2 samples.

Results

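The sarcomeric myosin heavy chain genes were followed through muscle differentiation in single cells of a mouse fibroblast-derived myogenic culture. The group holds 8 of the 26100 genes listed in both libraries, taken by gene symbol: Myh1, Myh2, Myh3, Myh4, Myh6, Myh7, Myh7b and Myh8. RNA was counted with a droplet assay in which every captured RNA molecule is tagged with an identifier of its own (UMI). The first library, iMPC, holds induced myogenic progenitor cells, obtained from mouse embryonic fibroblasts by MyoD together with F/R/C and kept in medium with F/R/C. The labels do not spell out F/R/C. The second, MEF, holds embryonic fibroblasts grown in MEF media. Both carried the genotype Tg:Pax7-nGFP/C57BL6;DBA2. Each culture gave 1 library, so nothing has a replicate check and no test was made. All intervals are at 95% and express counting error alone, and all but those of share differences are exact.

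Myosin heavy chains are the motor subunits of the thick filament, and the isoform a muscle fibre makes largely sets how fast it contracts. Developing skeletal muscle is known to make the embryonic and perinatal isoforms first and to replace them with adult fast or slow isoforms as fibres mature. The skeletal fast and developmental genes lie side by side on a single chromosome, and the slow and cardiac pair lies on another.

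iMPC cells were placed in stages by their UMIs of Myog, a muscle differentiation factor, and Ckm, muscle creatine kinase. These stages are ranges of counts, not cell types. The Myog stage held 1724 cells with at least 5 Myog UMIs and at most 1 Ckm UMI. The Ckm stages held 498 cells with 2 to 4 Ckm UMIs, 704 cells with 5 to 19 and 333 cells with 20 or more. The remaining 6090 iMPC cells had at most 1 Ckm UMI and less Myog, and the MEF library gave 6043 cells. Median UMIs per cell were 18929 in MEF, 18328 in the remaining iMPC cells and 23857.5 in the Myog stage, and 29408.5, 37963.5 and 51997 in the 3 Ckm stages in that order. Stage and depth thus moved together, and the part of depth in where a cell was placed was not tested beyond scaled bounds. The median mitochondrial share went from 3.90% in the Myog stage to 7.21% at 20 or more Ckm UMIs, and its part in the results was not tested. The summed level of 8 fibroblast markers was 6411 UMIs scaled to a total of 1000000 (CPM) in MEF, 1688 in the remaining iMPC cells, 297 in the Myog stage and 139.9 at 20 or more Ckm UMIs. Of 7 cardiac markers, which matter for Myh6 and Myh7, the summed level was between 0.754 and 1.63 CPM in every set, and Nppa, Gata4, Ryr2 and Mybpc3 were at 0 in the cells with 20 or more Ckm UMIs.

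Heavy chain RNA was nearly missing from the fibroblasts and made up a growing share of all UMIs along the stages. The 8 genes together gave 20 UMIs in MEF, or 0.169 CPM (0.103 to 0.262), and 6024 of the 6043 cells had none. Their sum was 93.1 CPM in the remaining iMPC cells, 1357 in the Myog stage, 2863 at 2 to 4 Ckm UMIs, 4194 at 5 to 19 and 5788 (5753 to 5823) at 20 or more. A cell of the Myog stage held a median of 6 family UMIs, with a range of 0 to 690. At 20 or more Ckm UMIs the median was 318 and the range 8 to 881. The embryonic and perinatal isoforms led at every iMPC stage, and the fast isoform Myh1 was next. Myh4 had the largest ratio between the last stage and the Myog stage, while in CPM Myh8, Myh3 and Myh1 differed more. The family sum did not climb at every point of the Ckm scale: it was 4955 CPM in the 121 cells with 15 to 19 Ckm UMIs and 4216 CPM in the 81 cells with 20 to 24.

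**Figure D1:**
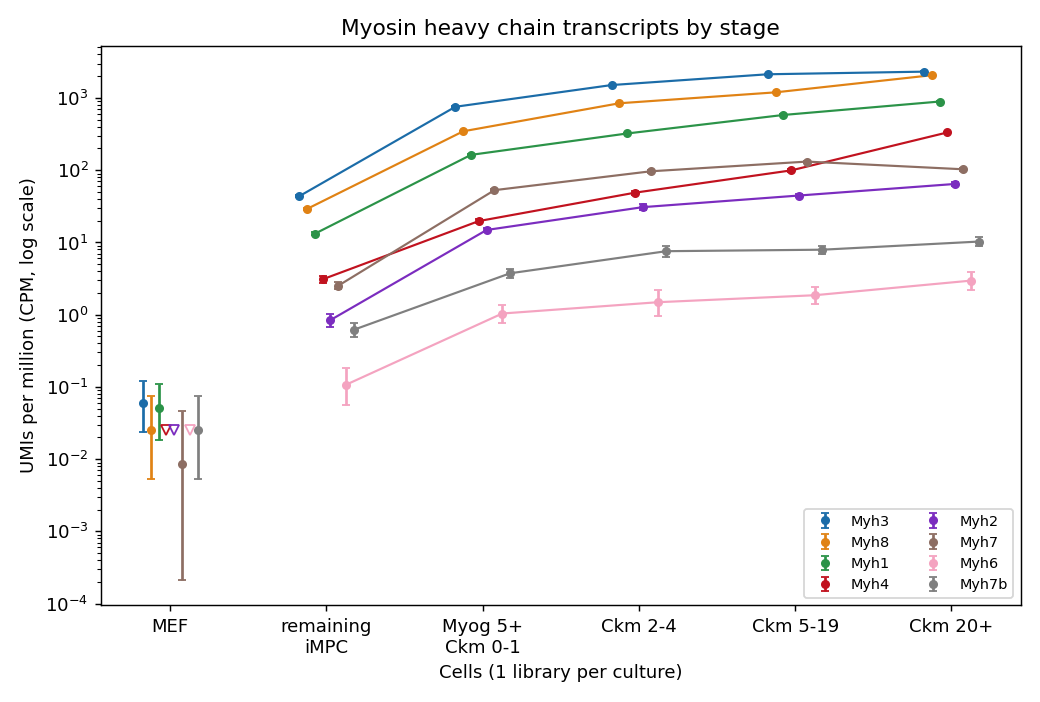
Level of each member in CPM (log scale) in MEF cells, the remaining iMPC cells and the 4 stages, with exact 95% Poisson intervals; open triangles mark the floor of 3 counts for members with 0 UMIs. Myh3 and Myh8 lie at the top of all 4 stages, Myh4 passes Myh7 in the last, and Myh7 alone turns down there.

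Myh3 encodes the embryonic heavy chain. Its level was 0.0593 CPM in MEF (7 UMIs), 43.6 in the remaining iMPC cells, 755 in the Myog stage, 1510.0, 2129 and 2315 CPM in the Ckm stages. It was the most abundant member at every stage, and most of its difference lay before the last step. Between the Myog stage and 20 or more Ckm UMIs its log2 ratio was 1.62 (1.59 to 1.64). Between the last 2 Ckm stages it was 0.12 (0.10 to 0.14), so Myh3 was close to level there. Myh8, the perinatal heavy chain, stood at 0.0254 CPM in MEF (3 UMIs), 29.1 in the remaining iMPC cells, 346 in the Myog stage and 845, 1197 and 2066 CPM in the Ckm stages. Unlike Myh3 it was clearly higher in the last stage than in the one before, with a log2 ratio of 0.79 (0.77 to 0.81). From the Myog stage to the last the log2 ratio was 2.58 (2.55 to 2.61).

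The adult fast isoforms followed. Myh1 encodes the type IIX chain, and its level was 0.0508 CPM in MEF (6 UMIs), 13.2 in the remaining iMPC cells, 163 in the Myog stage and 323, 582 and 893 CPM in the Ckm stages. Its log2 ratio between the last and the Myog stage was 2.45 (2.41 to 2.49). Myh4 encodes the type IIB chain of the fastest fibres and had 0 UMIs in MEF. Its level was 3.09 CPM in the remaining iMPC cells, 19.8 in the Myog stage and 48.9, 99.5 and 334 CPM in the Ckm stages. Myh4 thus moved from under Myh7 to over it in the order of levels. Its log2 ratio from the Myog stage to the last was 4.08 (3.98 to 4.18), and 1.75 (1.68 to 1.81) of this lay in the last step. Myh2, the type IIA chain, was the lowest of the adult fast members, with 0 UMIs in MEF, 0.842 CPM in the remaining iMPC cells, 14.9 in the Myog stage and 30.8, 44.7 and 64.6 CPM in the Ckm stages. Its log2 ratio over the same span was 2.12 (1.98 to 2.25).

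Among the slow and cardiac members Myh7 stood apart from Myh6 and Myh7b. Myh7 encodes the chain of slow fibres and of the heart ventricle. Its level was 0.00847 CPM in MEF (1 UMI), 2.52 in the remaining iMPC cells, 53.0 in the Myog stage, 96.6 at 2 to 4 Ckm UMIs, 132 at 5 to 19 and 103 at 20 or more. It was the only member lower in the last stage than in the one before it, with a log2 ratio of -0.35 (-0.43 to -0.27), and the sign was the same in 8 of 8 processing alternatives. From the Myog stage to the last its log2 ratio was 0.96 (0.87 to 1.05), but 0.06 with stage bounds on UMIs scaled to 20000 per cell. Myh6, the alpha chain of the heart, stood at 1.04 CPM in the Myog stage and 2.96 CPM in the last, and had 55 UMIs in all cells with 20 or more Ckm UMIs. Myh7b, a divergent member known from slow-tonic and specialised muscle, stood at 3.74 CPM in the Myog stage and 10.3 CPM in the last. The 95% intervals of neighbours in the order of levels overlapped nowhere within the 4 stages. They overlapped for Myh4 and Myh7 and for Myh2 and Myh7b in the remaining iMPC cells, and for all neighbours in MEF.

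Set against all genes, 4 of the 7 members tested (Myh8, Myh1, Myh4 and Myh2) were at least 4-fold higher at 20 or more Ckm UMIs than in the Myog stage, where 1.99% of 7376 genes of at least 10 CPM on the higher side were. Myh6 did not reach 10 CPM, and Myh7b reached it only in the higher stage. Myh3 and Myh7 did not pass 4-fold, and no member was 4-fold lower, where 4.19% of genes were. The members tested had a median log2 ratio of 2.12 and all genes tested one of -0.27. Myh2 sat at the threshold: its log2 ratio was 1.96 when the Ckm stages also needed 5 Myog UMIs and 1.99 when mitochondrial and ribosomal protein genes were left out of the total. In the last step alone no member passed 4-fold, and 0.0153% of genes did. From the Myog stage to 5 to 19 Ckm UMIs, Myh4 was the only member past 4-fold, with 0.301% of genes called.

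Against MEF cells, 7 of 7 members tested were at least 4-fold higher at 20 or more Ckm UMIs, where 8.11% of genes were. All 7 reached 10 CPM only through the higher side, so this count was fixed by the filter and is a description. Myh4 was at least 13136-fold higher, Myh2 at least 2542-fold and Myh6, which was under 10 CPM and not among the 7, at least 117-fold, each against a floor of 3 counts over the MEF library. The log2 ratios of Myh8 and Myh7, which had 3 UMIs and 1 UMI in MEF, were 16.31 (14.76 to 18.59) and 13.57 (11.09 to 18.88). So few fibroblast UMIs fix these ratios only within wide limits.

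The genes are annotated in GENCODE M21 on GRCm38, all as protein-coding. On chromosome 11, plus strand, Myh3 spans 67078300 to 67102291, Myh2 67171027 to 67197517, Myh1 67200052 to 67224575, Myh4 67238029 to 67260446 and Myh8 67277124 to 67308634. These 5 genes span 230335 bp, and no other gene listed in both libraries lies between them. On chromosome 14, minus strand, Myh6 spans 54941921 to 54966927 and Myh7 54970684 to 54994626. Myh7b lies on chromosome 2, plus strand, 155611212 to 155634307.

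The bases before the start sites of the clustered members are shown because these genes lie together yet differed in the size of their ratios between stages. They are RefSeq windows of build GRCm38.p6, plus strand, 5′ to 3′. That of Myh1 is printed only up to where its GENCODE gene begins, while its RefSeq window runs on to 67200101. Distances are counted from the RefSeq start of each gene. Capitals mark matches to the E-box (CANNTG), which myogenic factors such as MyoD bind, and to the MEF2 consensus, both strands searched.
Myh3 chr11:67078050-67078299: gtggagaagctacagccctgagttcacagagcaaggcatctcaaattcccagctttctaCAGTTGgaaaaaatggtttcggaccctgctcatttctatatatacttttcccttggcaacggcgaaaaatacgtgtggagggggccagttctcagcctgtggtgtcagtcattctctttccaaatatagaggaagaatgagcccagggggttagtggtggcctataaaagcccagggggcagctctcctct
Myh8 chr11:67276874-67277123: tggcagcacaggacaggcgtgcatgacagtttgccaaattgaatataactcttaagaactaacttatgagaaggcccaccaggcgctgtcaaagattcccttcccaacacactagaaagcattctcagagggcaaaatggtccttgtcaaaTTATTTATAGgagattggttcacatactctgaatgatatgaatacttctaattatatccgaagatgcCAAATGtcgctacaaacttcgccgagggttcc
Myh1 chr11:67199852-67200051: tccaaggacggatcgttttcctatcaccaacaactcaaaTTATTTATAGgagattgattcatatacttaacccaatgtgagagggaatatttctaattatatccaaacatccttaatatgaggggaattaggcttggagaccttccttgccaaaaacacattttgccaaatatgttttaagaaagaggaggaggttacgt
Myh4 chr11:67237562-67237811: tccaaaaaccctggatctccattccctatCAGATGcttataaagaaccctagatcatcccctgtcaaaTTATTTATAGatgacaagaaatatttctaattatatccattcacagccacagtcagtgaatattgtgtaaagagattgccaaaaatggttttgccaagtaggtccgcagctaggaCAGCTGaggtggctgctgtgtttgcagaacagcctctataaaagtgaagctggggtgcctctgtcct
Myh2 chr11:67170777-67171026: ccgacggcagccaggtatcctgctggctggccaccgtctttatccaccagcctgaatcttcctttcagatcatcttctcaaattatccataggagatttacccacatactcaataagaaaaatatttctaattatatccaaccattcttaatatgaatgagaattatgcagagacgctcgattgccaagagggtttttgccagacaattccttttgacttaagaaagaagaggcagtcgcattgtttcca
Myh8, Myh1 and Myh4, the members with the largest log2 ratios between the last and the Myog stage, each held a single MEF2 match with the same letters, ttatttatag. It began 99 bases before the RefSeq start in Myh8, 211 in Myh1 and 182 in Myh4. The RefSeq start of Myh1 lies past the end of its printed window. No match lay in the 250 bases before Myh3, Myh2, Myh7, Myh6 or Myh7b, and 2.92% of 32851 mouse promoters of that length held one. An E-box was held by 66.2% of promoters, and by those of Myh3, Myh8, Myh4, Myh7, Myh6 and Myh7b. The MEF2 match overlaps a TATAAA match on the other strand in all 3 genes. TATAAA was held by 12.4% of promoters. A CArG match, by name, lay only before Myh4, 104 to 95 bases from the start, and 1.47% of promoters held it. An MCAT match (CATTCC) lay before the RefSeq starts of Myh1, Myh4, Myh6 and Myh7, and 12.6% of promoters held it. That of Myh1 lay past the end of its printed window, inside its GENCODE gene.

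Some promoter sequence is shared outright. Myh8 and Myh1 share a run of 22 bases that covers the MEF2 match, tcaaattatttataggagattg. Myh8 and Myh4 share 17 bases there, tgtcaaattatttatag. A second run, aatatttctaattatatccaa of 21 bases, is common to Myh1 and Myh2, and 20 of its bases to Myh1 and Myh4. Myh3 shared no run over 11 bases with any member. A match describes letters in a window and says nothing on whether a factor binds there. The MEF2 matches of Myh8, Myh1 and Myh4 lie in sequence these genes share, so they are not separate finds. A link between the matches and the ratios between stages was not tested.

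**Figure D2:**
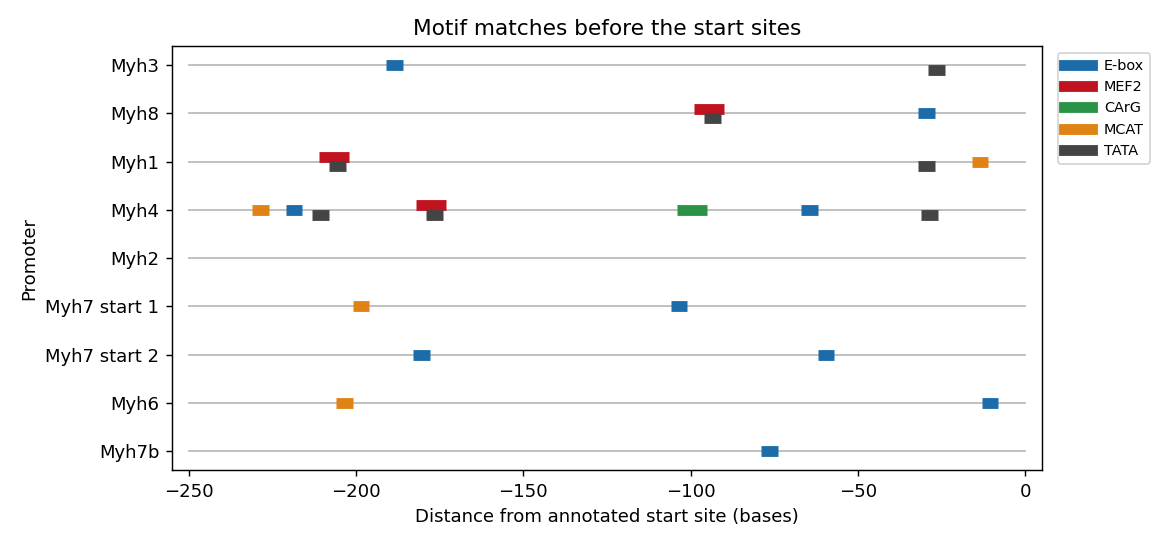
Motif matches in the 250 bases before each annotated RefSeq start site, with distance from that start in bases and 1 line per promoter (Myh7 has 2 annotated starts). The MEF2 matches of Myh8, Myh1 and Myh4 lie 99, 211 and 182 bases before the start, and no other member has one.

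The isoform make-up of the family changed with the Ckm stage. Each UMI stands for 1 molecule captured at its 3′ end, so counts of different members were added with no scaling for length. Myh3 made up 55.7% of family UMIs in the Myog stage, 52.7% at 2 to 4 Ckm UMIs, 50.8% at 5 to 19 and 40.0% (39.7 to 40.3) at 20 or more. Myh8 made up 25.5%, 29.5%, 28.5% and 35.7% (35.4 to 36.0) at the same stages. The share of embryonic myosin was thus lower in the last stage although its level was not. The difference between the last and the Myog stage was -15.7 percentage points for Myh3 (-16.2 to -15.2) and 10.2 for Myh8 (9.77 to 10.7). Myh1 made up 12.0%, 11.3%, 13.9% and 15.4%, a difference of 3.40 points. Myh4 made up 1.46%, 1.71%, 2.37% and 5.77%, a difference of 4.31 points (4.14 to 4.48). Adult fast isoforms therefore remained the smaller part of the family even at the highest stage.

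The share of Myh2 differed little between stages although its level did: it made up 1.10%, 1.08%, 1.07% and 1.12%. Its difference of 0.0185 points had an interval of -0.0864 to 0.121 and changed sign in 1 of 7 alternatives. Myh7 made up 3.90%, 3.37%, 3.14% and 1.78%, a difference of -2.12 points (-2.30 to -1.95). Myh7b went from 0.276% to 0.178% and Myh6 from 0.0766% to 0.0512%. Apart from Myh2, every member kept the sign of its difference in 7 of 7 alternatives.

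Within the last stage the shares differed further. In the 265 cells with 20 to 49 Ckm UMIs, Myh3 made up 41.2%, Myh8 34.3%, Myh1 16.2% and Myh4 5.08%. In the 62 cells with 50 to 99, Myh3 made up 36.8%, Myh8 40.6%, Myh1 12.7% and Myh4 7.29%, so Myh8 was the largest member in this range. Only 6 cells lay above, and in the 5 with 100 to 199 Ckm UMIs Myh3 made up 37.1%, Myh8 34.9%, Myh1 13.9% and Myh4 11.9%, so Myh3 was again above Myh8 there. At the bound of the stage, Myh3 made up 47.6% of the family with 15 to 19 Ckm UMIs and 45.9% with 20 to 24, and Myh4 3.19% and 2.63%.

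**Figure D3:**
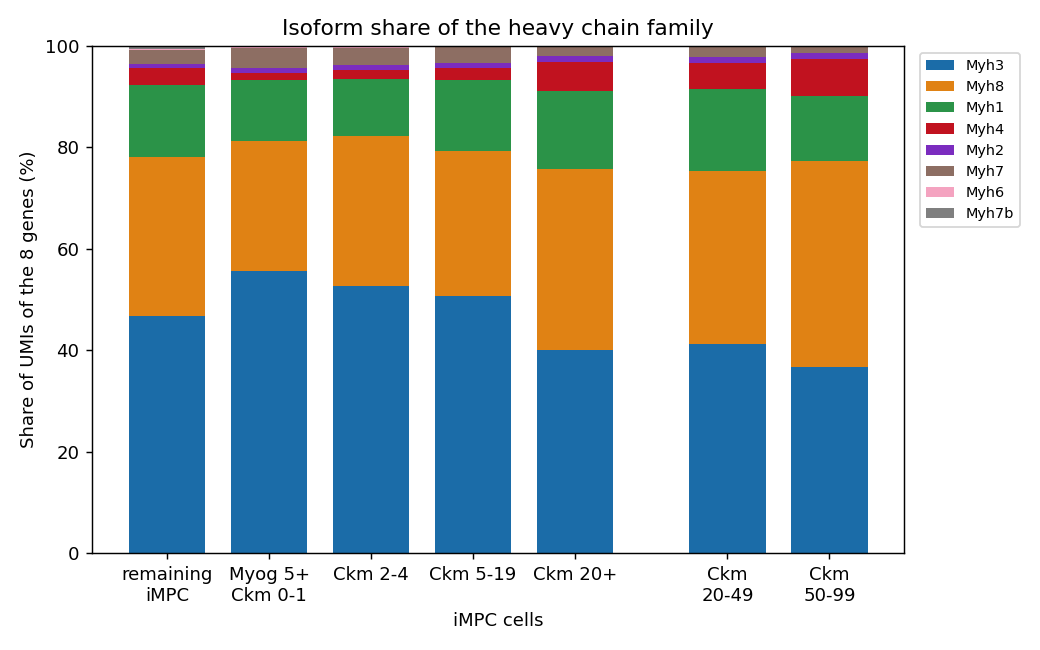
Share of the UMIs of the 8 genes taken by each member (%) in the remaining iMPC cells, in the 4 stages and in the last stage divided by Ckm UMIs. The Myh3 part goes from 55.7% in the Myog stage to 40.0% at 20 or more Ckm UMIs while those of Myh8 and Myh4 widen.

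The share of cells with a UMI was compared after thinning every cell to 8000 UMIs, since deeper cells show more genes. In the Myog stage Myh3 was found in 64.9% of cells, Myh8 in 43.4%, Myh1 in 31.6%, Myh7 in 17.5%, Myh2 in 7.02% and Myh4 in 6.61%. At 20 or more Ckm UMIs Myh3 was found in 99.4% (97.8 to 99.9), Myh8 in 94.6%, Myh1 in 83.5%, Myh4 in 56.2% (50.6 to 61.6), Myh2 in 36.6% and Myh7 in 33.3%. Detection of Myh4 thus passed that of Myh2 and Myh7. In between, at 5 to 19 Ckm UMIs, Myh4 was found in 25.9% and Myh7 in 50.7% (46.9 to 54.5), so Myh7 was found in fewer cells of the last stage, where its interval was 28.3 to 38.7. Myh7b was found in 9.61% of the last stage and Myh6 in 1.80%. Without thinning, the shares in the last stage were 100% for Myh3, 99.4% for Myh8, 97.9% for Myh1, 85.3% for Myh4, 79.6% for Myh2 and 59.5% for Myh7.

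Droplets also catch free RNA, so cells that should lack muscle genes give a background for these shares. In 133 fibroblast-like iMPC cells with at least 20 UMIs of Dcn, a fibroblast matrix gene, and 0 of Myog and Ckm (median 18198 UMIs), Myh3 was found in 19.5% (13.2 to 27.3), Myh8 in 18.0%, Myh1 in 7.52%, Myh7 in 1.50% and Myh4 in 0.752%. Myh2 was found in 0 of these 133 cells, which allows a share of cells with a UMI of up to 2.26% by the floor of 3 counts. In the remaining iMPC cells Myh3 was found in 22.4%, Myh8 in 15.2% and Myh1 in 6.49%. Those shares lie within the intervals of the Dcn-positive cells and by themselves show no more than background. The summed level of Myh3 was 43.6 CPM (42.4 to 44.8) in the remaining iMPC cells and 28.1 CPM (22.2 to 35.2) in the Dcn-positive cells. The Dcn-positive cells were chosen for 0 UMIs of Myog and Ckm, while the remaining iMPC cells could hold some. The part of this choice in the lower background shares and levels was not tested. Of the 6090 remaining iMPC cells 72 held at least 10 family UMIs (highest 344). Of the 133 Dcn-positive cells 0 did (highest 5), but these are too few to compare at so low a rate. The stage shares of Myh3, Myh8, Myh1, Myh7, Myh2 and Myh4 lie above the Dcn-positive intervals. In 5383 MEF cells deep enough for thinning (660 left out), Myh3 was found in 0.0372% and Myh4 in 0, which allows a share of up to 0.0557% by the same floor.

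Most cells of the last stage held RNA of several heavy chains at once. With all cells at 8000 UMIs, 4 members were found in 36.9% of the 333 cells, 5 in 26.1%, 3 in 19.8% and 6 in 9.01%. A single member was found in 3 cells (0.901%), and none was without a member. In the Myog stage 23.4% of cells held no member and 27.4% held 1. Of the 133 Dcn-positive cells 59.4% held no member and 34.6% held 1, so a single member by itself shows no more than background. Over all 28 pairs, the commonest at 20 or more Ckm UMIs was Myh3 with Myh8 in 94.0% of cells, followed by Myh3 with Myh1 in 82.9% and Myh8 with Myh1 in 79.9%. Cells called as doublets by Scrublet made up 7.02% of the Myog stage and 1.41% of the remaining iMPC cells. They made up 9.64% at 2 to 4 Ckm UMIs, 8.66% at 5 to 19 and 6.31% in the last stage. Without called doublets Myh3 and Myh4 were found together in 55.8% of the last stage, against 55.9% with them.

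The embryonic chain and the fastest adult chain met in single cells. Myh3 and Myh4 were both found in 5.57% of cells in the Myog stage, in 16.5% at 2 to 4 Ckm UMIs, in 25.6% at 5 to 19 and in 55.9% (50.3 to 61.3, 186 of 333 cells) at 20 or more. Of the Dcn-positive cells 0 of 133 held both. Since Myh3 was found in nearly all cells of the last stage, 185.9 cells with both were expected there from the product of the shares. Myh8 and Myh4 were both found in 55.6% of cells of that stage, in 185 cells against 176.9 expected from the product of their shares (log2 odds ratio 3.50, 1.37 to 6.69). Myh1 and Myh2 were both found in 34.8%, in 116 cells against 101.8 expected (2.54, 1.25 to 4.10). Their transcripts share sequence, and the part of misassigned reads in this was not tested. Myh4 with the slow chain went the other way from these pairs. Myh4 and Myh7 were both found in 44 cells (13.2%) against 62.3 expected, with a log2 odds ratio of -1.46 (-2.18 to -0.75).

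That pair differed between stages. In the Myog stage Myh4 and Myh7 were found together in 39 cells against 19.9 expected, a log2 odds ratio of 1.42 (0.79 to 2.03). At 2 to 4 Ckm UMIs it was 0.21 (-0.55 to 0.95) and at 5 to 19 it was -0.83 (-1.35 to -0.32). In the Myog stage Myh7 was also found with Myh3, Myh8, Myh1 and Myh2 in more cells than expected. With Myh3 it was found in 285 cells against 195.4 expected (3.65, 2.91 to 4.49). With Myh7b the interval held 0 (0.99, -0.04 to 1.95). That stage included cells with no member found (23.4%), and the part of this mixture in its odds ratios was not tested. At the last stage Myh2 with Myh7 showed no deficit like that of Myh4 with Myh7, with 40 cells against 40.7 expected (-0.06, -0.78 to 0.66).

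**Figure D4:**
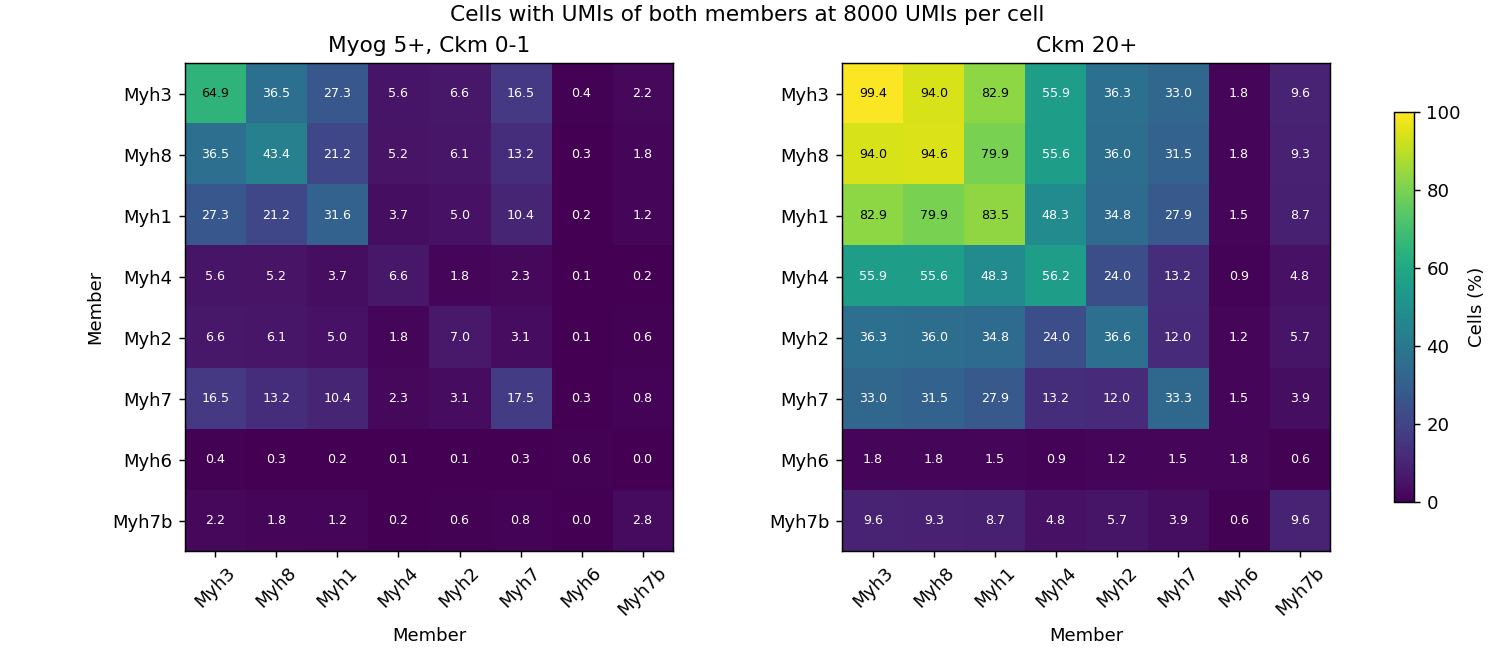
Share of cells (%) with UMIs of both members of a pair after thinning to 8000 UMIs per cell, in the Myog stage (left) and at 20 or more Ckm UMIs (right); the diagonal gives each member alone. Myh3 with Myh4 goes from 5.57% to 55.9% of cells.

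Single cells differed in which isoform led. Among cells with at least 20 family UMIs, Myh3 was the largest member in 470 of 547 cells of the Myog stage (85.9%) and in 181 of 331 cells at 20 or more Ckm UMIs (54.7%, 49.1 to 60.1). Myh8 led in 9.51% and 35.3% of these cells. Myh1 led in 3.11% and 6.34%, and Myh4 in 6 cells (1.81%) of the last stage. Myh2, Myh7, Myh6 and Myh7b led in none of the 331. Myh3 and Myh8 each held at least 20% of the family UMIs in 46.8% of cells in the Myog stage and in 69.8% (231 cells) in the last. At the same bar, Myh8 was paired with Myh4 in 24 cells of the last stage, Myh3 with Myh4 in 13 and Myh1 with Myh4 in 2, whichever member led.

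The spread between cells was wide for the abundant members. At 20 or more Ckm UMIs the Myh3 share of a cell ran from 0.147% to 95.7%, with a median of 41.6% and an SD over 331 cells of 20.2 points. The Myh4 share had a median of 1.80%, a 90th percentile of 15.3% and a highest value of 43.9%. The variance between cells was 40.8 times the binomial value for Myh3, 38.9 times for Myh4, 37.4 times for Myh1 and 27.9 times for Myh8. For Myh2, with few UMIs per cell, it was 1.74 times, a ratio that is smaller where counts are low. The top 10% of cells by Myh4 held 52.6% of its UMIs in that stage, against 22.8% for Myh3.

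**Figure D5:**
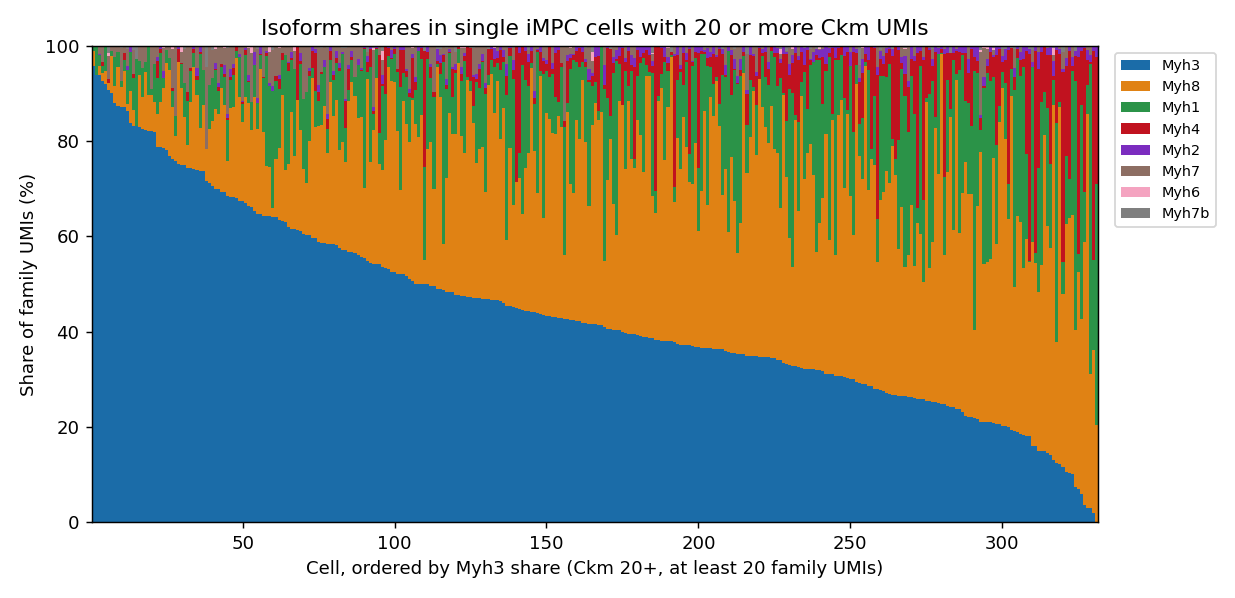
Share of family UMIs (%) taken by each member in 331 single iMPC cells with 20 or more Ckm UMIs and at least 20 family UMIs, ordered by Myh3 share. The Myh3 share runs from 95.7% down to 0.147%, Myh8 fills most of the rest, and Myh4 reaches 43.9% of a cell.

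The genes whose levels ran most like each member were taken over the 1037 cells with at least 5 Ckm UMIs, among 2226 genes of at least 50 CPM. The points share library and depth, so the coefficients are descriptions. For Myh3 they were Ttn (Pearson r = 0.61) and Neb (0.61), which encode the giant proteins titin and nebulin, and Actn2 (0.52), a Z-disc actinin. For Myh8 they were Casq1 (0.81), a calcium-binding protein of the sarcoplasmic reticulum in fast fibres, Mybpc1 (0.79), a myosin-binding protein C, and Actn3 (0.76), the fast-fibre actinin. For Myh4 they were Myoz1 (0.66), a Z-disc protein of fast fibres, Casq1 (0.61) and Actn3 (0.60). For Myh2 they were Casq1 (0.56), Mybpc1 (0.55) and Cmya5 (0.52). Myh8, Myh4 and Myh2 thus had Casq1 in common.

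Myh1 and Myh7 had other partners. For Myh1 they were Cox7a1 (0.60), a subunit of cytochrome c oxidase, the mitochondrial protein gene Chchd10 (0.59) and Mb (0.59), which encodes myoglobin. For Myh7 they were weaker and of the cytoskeleton: Macf1 (0.41), Cnn3 (0.35) and Palld (0.34). Its lowest coefficients were with Pvalb (-0.37), the calcium buffer of fast fibres, Myoz1 (-0.36) and Chchd2 (-0.30). For every other member ranked, the 3 lowest were ribosomal protein genes, with Rack1 among those of Myh4. For Myh8 the lowest was Rpl12 (-0.76). Among members, the highest coefficients were Myh8 with Myh2 (0.65), Myh1 with Myh2 (0.65) and Myh8 with Myh4 (0.61). Myh3 with Myh4 gave 0.12 and Myh4 with Myh7 -0.26. With Myog the coefficients were -0.60 for Myh8, -0.51 for Myh4, -0.06 for Myh3 and 0.27 for Myh7. With UMIs per cell they were 0.30 for Myh8 and 0.12 for Myh3.

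Genes that work with the heavy chains were compared in the same way. Of 8 fast fibre genes, 5 were at least 4-fold higher at 20 or more Ckm UMIs than in the Myog stage (1.99% of all genes) and none was 4-fold lower (4.19% of all genes), with a median log2 ratio of 2.13. The largest were Myoz1 (4.02), Pvalb (3.53) and Casq1 (2.72). Of 6 slow fibre genes none passed 4-fold, and the median was 1.61. The largest were Myoz2 (1.87), Casq2 (1.77) and Tnnc1 (1.69), the slow troponin C, which stood at 5220.4 CPM in the last stage. The medians of both lists lie above the -0.27 of all genes.

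Several thick filament partners were higher as well. Of 18 tested among 21 listed, 7 were at least 4-fold higher (1.99% of all genes) and none was 4-fold lower (4.19% of all genes), with a median log2 ratio of 1.67. Mybpc2, the fast myosin-binding protein C, went from 0.563 to 17.2 CPM (4.93), Mylk2, the skeletal myosin light chain kinase, from 0.498 to 10.1 CPM (4.34), and Myom2, an M-band protein, from 25.8 to 147 CPM (2.51). Mybpc2 and Mylk2 passed 10 CPM only in the higher stage. Of 11 tested among 16 listed regulators of these genes, none passed 4-fold in either direction, against the same 1.99% and 4.19%. Tbx15 (1.08) and Sox6 (0.68), both linked to fast fibres, and Mef2c (1.05), a MEF2 factor, were higher, while Prox1 (-1.40), linked to slow fibres, and Six4 (-1.40), which acts on fast genes, were lower.

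Of 6 further heavy chain genes, Myh9 and Myh10 were tested and neither passed 4-fold. Myh9, a non-muscle chain of most cell types, stood at 364 CPM in MEF, 99.6 in the Myog stage and 40.8 at 20 or more Ckm UMIs (log2 ratio of the last pair -1.29). Myh10, also non-muscle, stood at 81.5, 29.2 and 13.5 CPM (-1.12).

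Close copies limit how surely reads were given to single members. Of 451 windows of 50 bases in the last 500 bases of each longest coding transcript, the share also found in another member was 0% for Myh3 and Myh7b, 1.33% for Myh8, 7.54% for Myh4 and 16.0% for both Myh1 and Myh2. It was 51.0% for Myh7 and 42.8% for Myh6, which share it with each other. By these ends Myh3 and Myh8 are the most surely separated of the abundant members, and Myh1 and Myh2 are less so. Over the whole transcript the share was 3.66% for Myh3, 18.6% for Myh4, 19.9% for Myh8, 26.1% for Myh1 and 26.7% for Myh2. The standing of Myh8 thus holds only for reads from the last 500 bases. The low Myh6 level beside Myh7 is uncertain, and so are the level and share of Myh7. The part of shared sequence in the pairs and correlations of Myh1 with Myh2 was not tested.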

How the data were processed

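Values in the deposited matrices are raw counts of UMIs, and no normalisation by the authors is recorded. Per the file headers, Cell Ranger wrote them; the submitters' processing notes name Cell Ranger 4.0, Seurat 3.2.3 and the build GRCm38.p6. The treatment protocol text of the MEF sample repeats that of the iMPC sample, and its own treatment label was used. The MEF matrix lists 6113 barcodes, and how they were chosen is not given in the sources used here. The 26100 genes shared by both matrices were used; 24 further MEF genes, with 0.209% of its UMIs, were dropped.

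An iMPC barcode was kept as a cell at 8036 or more UMIs, and cells of both libraries at up to 20% mitochondrial UMIs, which left 9349 and 6043 cells. The libraries shared 16 cell barcodes. Doublets were kept in the values given; Scrublet in scanpy 1.11.5 marked 337 iMPC cells (3.60%) by its own threshold, and in MEF the highest 4% of scores (242 cells) were taken because it marked too few. UMIs were summed over the cells of a set and divided by the set's total (CPM). Intervals are exact at 95%: Poisson for levels, conditional for ratios, Clopper-Pearson for shares. Those of share differences are not exact and combine the Clopper-Pearson limits of the 2 shares. Shares of cells were taken after thinning to 8000 UMIs without replacement. PCR copies are removed by the UMIs, and intervals and floors cover counting error only. A member with 0 UMIs was given a floor of 3 counts. Genes of at least 10 CPM on the higher side were called past 4-fold. The ratio and thinning steps were tested on simulated data. Of the shared gene IDs, 25989 were found in GENCODE M21. RefSeq promoters matched 8 of 8 members. Python 3.11.15, numpy 2.4.6, scipy 1.17.1 and pandas 2.3.3 were used.

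The members and the gene lists were chosen with earlier results of these data known. Genes named from lists are the 3 largest log2 ratios in each direction per list, of which 1 is not reported here, and genes most like a member the 3 highest correlations; Mybpc3 and other markers at 0 and the lowest correlations were named after their values were seen. Alternatives covered the cell, mitochondrial and doublet filters, the stage bounds, free RNA, scaling, thinning and thresholds.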

Additional observations from a re-analysis of the deposited data

Results flagged for a closer look

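Heavy chain RNA was also present outside the cells analysed, above its level in the MEF cells, which held 0.169 CPM of the family. In 48846 iMPC barcodes of 200 to 600 UMIs, too few for a cell, the family stood at 1835 CPM. Myh3 stood there at 855 CPM, Myh8 at 613, Myh1 at 223, Myh4 at 71.2, Myh7 at 48.2, Myh2 at 15.1, Myh7b at 7.39 and Myh6 at 1.55. Myh3 made up 46.6% and Myh8 33.4% of that pool, which lies between their shares in the cells with 5 to 19 and with 20 or more Ckm UMIs.

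In the 191 iMPC barcodes left out for over 20% mitochondrial UMIs the family stood at 8795 CPM, above every stage. Myh3 stood at 3522 CPM, Myh8 at 3395, Myh1 at 1284, Myh4 at 331, Myh7 at 139.5, Myh2 at 98.5, Myh7b at 22.2 and Myh6 at 2.10.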

How the results depend on the processing

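No paired analysis was possible because each culture gave 1 library and the labels give no shared replicate numbers. The share difference of Myh2, whose interval held 0, changed sign in 1 of 7 alternatives, and Myh7 was higher at 5 to 19 than at 2 to 4 Ckm UMIs in 7 of 8; every other sign compared between stages was kept. The family sum at 20 or more Ckm UMIs, 5788 CPM, was 5348 at up to 10% mitochondrial UMIs, 5887 without doublets, 8490.0 with stage bounds on UMIs scaled to 20000 per cell (70 cells), 5524 where the Ckm stages also needed Myog, 5869 with free RNA subtracted, 6185 as a mean of cells and 8306 without mitochondrial and ribosomal protein genes. In the order mitochondrial limit, scaled bounds, Myog needed, the share difference of Myh3 was -13.5, -23.6 and -14.03 points, that of Myh8 9.61, 12.9 and 9.36, and that of Myh4 3.66, 7.15 and 3.94. As means of single cells, those of Myh3 and Myh8 were -17.9 and 12.5. Cells with both Myh3 and Myh4, 55.9%, were 48.7% at the mitochondrial limit, 72.9% with scaled bounds, 85.3% without thinning, 50.2% at 5000 UMIs and 36.0% at 2 or more UMIs of each. Of the 4 members past 4-fold, 1 (Myh4) passed 8-fold. The cause of these differences was not tested. Few UMIs limit Myh6, which had 55 at 20 or more Ckm UMIs.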
